A study of Mus musculus with 12 samples.

Results

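Insulin-treated fasting-mimic hepatocytes were compared with untreated hepatocytes, gene by gene across the whole transcriptome. The comparison used 3 samples labelled FDI and 3 samples labelled Mock, 6 of the 12 samples of the series. All were primary hepatocytes of a wild-type C57/Bl6J mouse, isolated with collagenase and kept overnight in serum-free M199 medium for 16 h. The FDI cells received 100 nM insulin, and 1 h later 10 µM forskolin, which activates adenylate cyclase and raises cAMP, together with 1 µM dexamethasone, a synthetic glucocorticoid. They were lysed after 5 h with forskolin and dexamethasone. The Mock cells received none of these agents, and whether they received a vehicle is not given in the sources used here. The question addressed was which part of the response to fasting hormones is seen in the presence of insulin, and which genes lie beyond their untreated level in either direction. Because FDI differs from Mock by 3 agents at once, the effects of forskolin, dexamethasone and insulin cannot be told apart here. The labels name a single animal and do not say that the replicates were separate preparations, so a p-value here reflects only how far these 6 samples scatter, and that scatter may be technical.

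In the fasted liver, glucagon acts through cAMP, protein kinase A and the transcription factor CREB, and glucocorticoids act through the glucocorticoid receptor. Together these signals induce the enzymes of gluconeogenesis and of amino acid breakdown, which supplies carbon for glucose and nitrogen for urea. Insulin opposes them through the kinase AKT, which keeps FOXO transcription factors out of the nucleus, and it induces genes of glucose use and fat synthesis.

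RNA was sequenced after poly-A selection, and the values are TPM, a share of all transcripts in a library scaled to 1000000. Between 11121 and 11161 genes per Mock sample and between 10900 and 10981 per FDI sample had at least 1 TPM. Read numbers cannot be recovered from TPM, so the depth behind each value is unknown. The groups were separated on the first principal component, which accounted for 71.8% of the variance. Correlation across genes ran from 0.985 to 0.987 within Mock and from 0.990 to 0.992 within FDI, where genes are not independent replicates. Alb (albumin), the defining product of hepatocytes, stood between 25420 and 26300 TPM in Mock and between 22530 and 23230 TPM in FDI. In bulk RNA, fewer cells of a type and less RNA per cell cannot be told apart.

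Of 36144 gene symbols, 11125 had at least 1 TPM in at least 3 of the 6 samples and were tested on log2(TPM + 1) with limma and Benjamini-Hochberg adjustment. Folds below are ratios of group mean TPM, log2 changes are FDI minus Mock on the log2(TPM + 1) scale with their standard error (SE), and a value after ± is the SD of 3 samples. A pair of levels written as "from" the first "to" the second gives the Mock mean and then the FDI mean. At an adjusted p under 0.05, 1472 genes (13.2%) were higher in FDI and 2905 (26.1%) were lower, 4377 in all (39.3%). A log2 change of at least 1 was reached by 364 of the higher genes (3.27% of those tested) and by 353 of the lower genes (3.17%). The 3 FDI values and the 3 Mock values did not overlap for 5786 genes (52.0%). An absence of overlap given below for single genes is therefore common and describes the values only. The excess of lower calls depended on the scaling: lower genes made up 66.4% of the calls on TPM, 47.3% after median-of-ratios scaling (2188 higher and 1965 lower) and 55.8% after quantile normalization (1812 higher and 2284 lower). The median log2 change of all tested genes was -0.10 on TPM, 0.01 after median-of-ratios scaling and -0.03 after quantile normalization. Small changes of gene groups are therefore read against that median. Counts of higher and lower list members below are likewise read against the 13.2% and 26.1% of all tested genes.

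**Figure D1:**
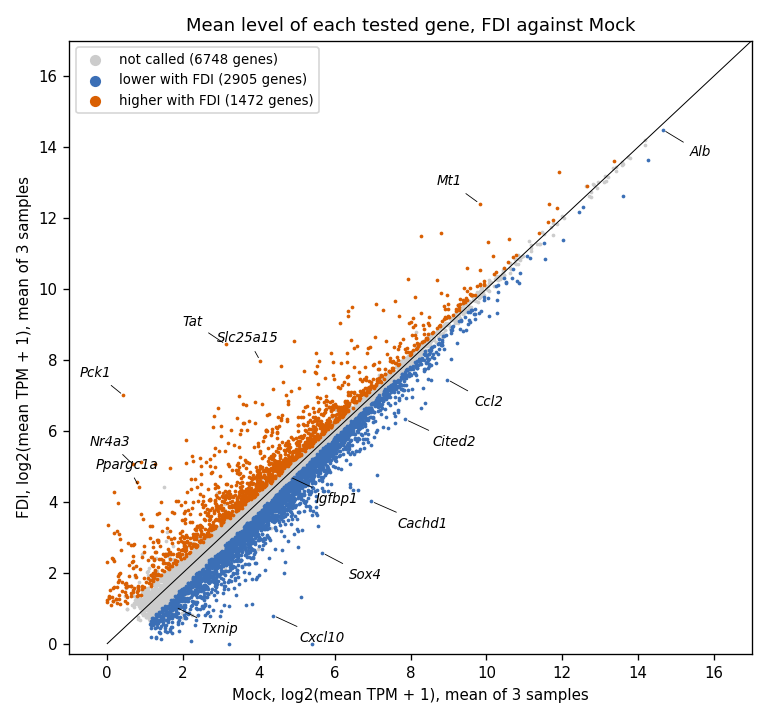
Mean level of each of the 11125 tested genes, as log2(mean TPM + 1) of the 3 Mock samples (horizontal) and the 3 FDI samples (vertical), with the line of equal levels. Orange points are the 1472 genes called higher in FDI and blue points the 2905 called lower. Pck1, Tat and Nr4a3 lie far above the line, Cxcl10 and Sox4 far below it, and Igfbp1 on it.

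The lists of fasting-hormone genes, 5 in number and with 16 genes in more than 1 of them, held 105 genes when each was counted once. Of these, 102 could be tested, 70 were higher in FDI, 8 were lower and 24 did not pass, where 13.2% of all tested genes were higher and 26.1% lower. Of the 70, 47 rose at least 2-fold on the log2(TPM + 1) scale. Of the 102, 6 were at or above 1 TPM in FDI samples alone and so passed the filter only through the group in which they were high. The median log2 change of the 102 was 0.88, against -0.10 for all tested genes. The 8 lower members were Crtc2, Angptl4, Glul, Nfkbia, Sesn3, Txnip, Ccng2 and Cited2.

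Glucose-producing genes were higher in FDI, with insulin in the medium. Of the 20 members of the gluconeogenesis list, 16 rose and none fell, with a median log2 change of 0.93, and 4 passed the filter through FDI alone. Pck1 encodes cytosolic phosphoenolpyruvate carboxykinase, the enzyme that commits oxaloacetate to glucose (ENSMUSG00000027513.11, GRCm38 chr2:173153048-173159273). It stood at 0.243, 0.245 and 0.540 TPM in the Mock samples and 120.1, 123 and 138 TPM in the FDI samples. All 3 Mock values were below 1 TPM and all 3 FDI values above 100, a 370.4-fold ratio of means (log2 change 6.58, SE 0.12, adjusted p = 1.1e-08). G6pc, which encodes the phosphatase subunit that releases free glucose, stood at 0.0900, 0.445 and 0.234 TPM in the Mock samples and 3.08, 2.49 and 3.31 TPM in the FDI samples. The groups did not overlap, but the FDI level was low (11.5-fold, log2 change 1.66, SE 0.17, adjusted p = 0.00018). Ppargc1a, a coactivator of gluconeogenic genes, stood at 0.834, 0.793 and 0.747 TPM in the Mock samples and 16.7, 19.3 and 25.2 TPM in the FDI samples. Every FDI sample was above every Mock sample (25.7-fold, log2 change 3.56, SE 0.16, adjusted p = 1.2e-06).

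Other members of the list moved by less than Pck1. Slc37a4, the transporter that brings glucose-6-phosphate to the phosphatase, rose from 3.22 to 7.29 TPM. Got1, the cytosolic aspartate aminotransferase, rose 8.23-fold (80.6 ± 4.72 TPM in Mock and 663 ± 10.4 TPM in FDI). Gpt2, a mitochondrial alanine aminotransferase, rose 4.43-fold (153 ± 2.12 TPM in Mock and 679 ± 39.8 TPM in FDI). Slc25a25, a calcium-dependent carrier of ATP and phosphate in mitochondria, rose 6.12-fold. The 4 members that did not pass were Fbp1, Mpc1, Mpc2 and Pck2.

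The promoters of 3 members of the cAMP list and of Arl4d, a gene outside the lists, are shown because they hold the core of the cAMP response element, a binding sequence of CREB. Sequences run 5′ to 3′ on the gene's strand, from 250 bases before the RefSeq start site to 50 after it (GRCm38.p6). Capitals mark the core ACGTCA on either strand, where the reverse strand reads TGACGT. The core was chosen after values were seen, as were the genes other than Arl4d, which the rule for named genes selects by the full palindrome TGACGTCA.
Pck1 (chr2:173152823-173153122, plus strand): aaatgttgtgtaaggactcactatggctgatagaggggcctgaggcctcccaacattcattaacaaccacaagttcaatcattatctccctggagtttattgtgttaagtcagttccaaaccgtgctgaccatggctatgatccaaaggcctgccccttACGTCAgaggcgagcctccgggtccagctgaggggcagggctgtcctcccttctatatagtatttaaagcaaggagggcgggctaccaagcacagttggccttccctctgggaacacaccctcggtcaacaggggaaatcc
Nr4a3 (chr4:48045055-48045354, plus strand): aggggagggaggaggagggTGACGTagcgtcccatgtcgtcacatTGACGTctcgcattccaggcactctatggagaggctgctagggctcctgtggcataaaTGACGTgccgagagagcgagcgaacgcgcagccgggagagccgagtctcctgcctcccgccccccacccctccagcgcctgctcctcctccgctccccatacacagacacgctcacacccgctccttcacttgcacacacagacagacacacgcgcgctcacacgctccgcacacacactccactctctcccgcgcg
Ppargc1a (chr5:51567676-51567975, minus strand): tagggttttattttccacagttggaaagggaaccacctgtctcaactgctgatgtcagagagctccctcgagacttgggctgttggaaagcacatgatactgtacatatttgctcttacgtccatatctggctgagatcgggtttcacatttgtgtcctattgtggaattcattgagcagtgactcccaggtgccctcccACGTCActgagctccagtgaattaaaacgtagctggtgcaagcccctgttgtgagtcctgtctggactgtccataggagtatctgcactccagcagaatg
Arl4d (chr11:101665291-101665590, plus strand): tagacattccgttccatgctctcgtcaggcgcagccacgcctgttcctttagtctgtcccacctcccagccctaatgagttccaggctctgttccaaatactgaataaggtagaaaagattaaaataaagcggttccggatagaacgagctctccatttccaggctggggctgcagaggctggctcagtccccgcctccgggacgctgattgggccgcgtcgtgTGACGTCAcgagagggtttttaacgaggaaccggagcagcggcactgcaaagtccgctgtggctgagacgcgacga

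The first capital base lies 91 bases before the start site in Pck1 and 50 bases before it in Ppargc1a. Nr4a3 has 3 matches, beginning 231, 205 and 147 bases before its start site. In Arl4d the match begins 26 bases before the start site and spans the full palindrome. Of the tested genes, 8593 had a promoter in the RefSeq table, and 13.6% of these promoters held the core. The share was 18.6% among higher genes and 11.3% among lower genes, 17.8% among genes at least 2-fold higher and 6.43% among genes at least 2-fold lower. The full palindrome TGACGTCA was found in 3.67% of all these promoters, in 5.60% of those of higher genes and in 2.91% of those of lower genes. Among genes at least 2-fold higher the share was 4.07%, close to that of all genes, and among genes at least 2-fold lower it was 2.01%. A match is a description of the sequence and not a measured site.

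Of the 24 targets of cAMP and CREB on the list, 22 were tested, 19 rose and 1 fell, with a median log2 change of 1.49. Among the 22, 4 passed the filter through FDI alone, so that their rise was built into the filter. Among the 19 tested members with a promoter in the table, 10 held the ACGTCA core, among them Pck1, Nr4a3, Ppargc1a, Per1, Rgs2 and Fos. The list is one of CREB targets and the core was chosen after values were seen, so this count is no test of CREB. Nr4a3, an orphan nuclear receptor of the immediate-early class, stood at 0.377, 0.977 and 0.416 TPM in the Mock samples and 29.9, 33.2 and 33.9 TPM in the FDI samples. It was below 1 TPM in every Mock sample and rose 54.8-fold (log2 change 4.41, SE 0.16, adjusted p = 4e-07). Its relatives rose by less, Nr4a1 3.58-fold (4.29 ± 0.447 TPM in Mock and 15.4 ± 0.796 TPM in FDI) and Nr4a2 3.05-fold (3.16 ± 0.192 TPM in Mock and 9.64 ± 2.11 TPM in FDI). Rgs2, a brake on G-protein signalling, stood at 0, 0 and 0.0616 TPM in the Mock samples and 8.17, 9.73 and 9.53 TPM in the FDI samples (log2 change 3.31, adjusted p = 9.3e-07).

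Feedback genes of the cAMP pathway were among the members that rose. Crem, whose short products repress CREB targets, rose 3.38-fold (16.6 ± 4.01 TPM in Mock and 56.0 ± 4.12 TPM in FDI). Sik1, a kinase that holds CREB coactivators in the cytosol, rose 2.85-fold, and the cAMP phosphodiesterase Pde4b rose 2.87-fold. The 1 member that fell was Crtc2, a CREB coactivator itself, at 36.5, 41.4 and 35.2 TPM in the Mock samples and 28.9, 28.8 and 28.6 TPM in the FDI samples (log2 change -0.38, SE 0.08, adjusted p = 0.0066). Its groups did not overlap, and the step was small. Pdk4, which shuts down pyruvate oxidation in fasting, did not pass.

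Glucocorticoid receptor targets were mostly far above Mock. Of 24 members, 23 were tested, 18 rose and 3 fell, with a median log2 change of 1.72. Tat, tyrosine aminotransferase and the classical glucocorticoid-induced liver enzyme, stood at 6.66, 8.89 and 7.58 TPM in the Mock samples and 326, 341 and 369.5 TPM in the FDI samples. The groups were far apart in every sample (44.8-fold by means, log2 change 5.32, SE 0.10, adjusted p = 1.1e-08). Fkbp5, a chaperone that feeds back on the receptor, stood at 8.46, 8.58 and 8.88 TPM in the Mock samples and 60.8, 66.6 and 65.6 TPM in the FDI samples (7.44-fold, log2 change 2.76, SE 0.08, adjusted p = 1.3e-07). Tsc22d3, the glucocorticoid-induced leucine zipper, stood at 10.6, 11.2 and 11.7 TPM in the Mock samples and 73.1, 68.6 and 80.9 TPM in the FDI samples (6.66-fold, log2 change 2.63, SE 0.09, adjusted p = 2.8e-07). Neither gene had overlapping groups.

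Sgk1, a kinase of ion transport, rose 12.6-fold (10.0 ± 1.55 TPM in Mock and 126 ± 15.7 TPM in FDI). Per1, a clock gene with glucocorticoid and cAMP input, rose 8.26-fold (4.46 ± 0.716 TPM in Mock and 36.8 ± 0.927 TPM in FDI). Klf15, a factor that drives amino acid breakdown, rose 10.2-fold (3.72 ± 0.250 TPM in Mock and 37.8 ± 2.42 TPM in FDI). The metal-binding metallothioneins reached the highest levels on the list: Mt1 rose from 905 to 5420 TPM and Mt2 from 308 to 2864 TPM. Near-identical stretches of these paralogs may share reads. Cyp2b10, a drug-metabolising P450, rose 9.99-fold.

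The 3 members called lower were Angptl4, Nfkbia and Glul. Angptl4, an inhibitor of lipoprotein lipase that fasting is known to raise, stood at 51.4, 64.5 and 50.2 TPM in the Mock samples and 33.4, 31.0 and 26.0 TPM in the FDI samples (log2 change -0.85, SE 0.12, adjusted p = 0.00092). Nfkbia, the inhibitor of NF-kappaB, stood at 44.1, 42.9 and 42.5 TPM in the Mock samples and 25.4, 25.5 and 25.1 TPM in the FDI samples (log2 change -0.75, SE 0.07, adjusted p = 6e-05). Glul, glutamine synthetase, stood at 36.3, 26.4 and 31.8 TPM in the Mock samples and 18.5, 19.3 and 19.9 TPM in the FDI samples (log2 change -0.67, SE 0.12, adjusted p = 0.0024). For each of these the 3 FDI values lay below all 3 Mock values, where 52.0% of all tested genes had no overlap in either direction.

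In the list of amino acid breakdown and the urea cycle, 22 of 32 tested members were higher and none lower (median log2 change 0.63), and 1 passed the filter through FDI alone. Slc25a15, the mitochondrial ornithine carrier of the urea cycle, stood at 15.0, 15.2 and 15.8 TPM in the Mock samples and 234, 262 and 258 TPM in the FDI samples. The samples of each group lay close together and far from the other group (16.4-fold by means, log2 change 3.95, SE 0.07, adjusted p = 1.1e-08). Sds, serine dehydratase, stood at 0.792, 0.602 and 0.730 TPM in the Mock samples and 22.8, 19.9 and 25.0 TPM in the FDI samples (31.9-fold, log2 change 3.78, SE 0.13, adjusted p = 3e-07). Aass, which opens lysine breakdown, stood at 6.28, 6.04 and 7.49 TPM in the Mock samples and 93.7, 104 and 99.1 TPM in the FDI samples (15.0-fold, log2 change 3.72, SE 0.09, adjusted p = 8.6e-08). Each of the 3 was higher in every FDI sample than in any Mock sample.

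Within the urea cycle the members differed in size of change. Cps1, carbamoyl-phosphate synthetase and the entry enzyme, stood at 4.10, 2.94 and 4.24 TPM in the Mock samples and 30.4, 35.2 and 38.7 TPM in the FDI samples (9.25-fold, log2 change 2.92, SE 0.14, adjusted p = 2.1e-06). Ass1, argininosuccinate synthetase, rose 4.18-fold (192 ± 9.08 TPM in Mock and 801 ± 21.6 TPM in FDI), and Arg1, arginase, 4.79-fold (5.61 ± 0.650 TPM in Mock and 26.9 ± 2.04 TPM in FDI). Otc and Asl, which encode the remaining steps of the cycle, did not pass (log2 changes 0.12 and 0.16). Gldc, of glycine cleavage, rose 3.77-fold, and Oat, ornithine aminotransferase, 3.00-fold. Tdo2, the tryptophan-degrading enzyme, did not pass (log2 change 0.02).

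**Figure D2:**
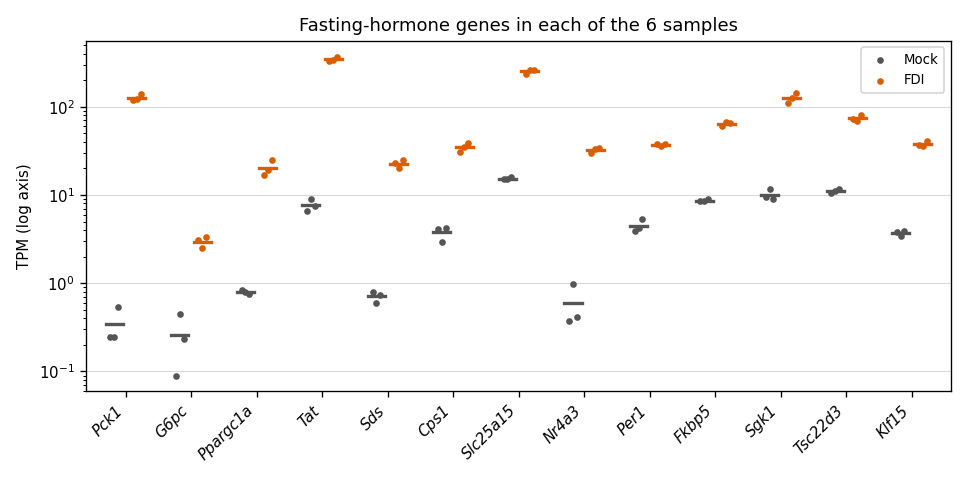
TPM of 13 fasting-hormone genes in each of the 6 samples on a log axis, with the 3 Mock samples in grey and the 3 FDI samples in orange; points are samples and bars are group means. For all 13 genes the 3 FDI samples lie above the 3 Mock samples, with the widest gap for Pck1. Groups did not overlap for 52.0% of all tested genes.

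FOXO targets, which insulin represses, were split. Of 24 members, all tested, 12 rose, 4 fell and 8 did not pass, with a median log2 change of 0.33, and 3 passed the filter through FDI alone. Igfbp1, an insulin-repressed binding protein of insulin-like growth factors, stood at 23.9, 25.7 and 30.8 TPM in the Mock samples and 21.7, 24.9 and 28.9 TPM in the FDI samples. The groups overlapped, and the difference did not pass (log2 change -0.09, 95% interval from -0.38 to 0.21, adjusted p = 0.62). Its promoter is shown because it holds the insulin response core CAAAACA, in capitals, 108 bases before the start site. This core, also chosen after values were seen, was searched on both strands (reverse TGTTTTG) and was present in 5.38% of all tested promoters, 4.35% of those of higher genes and 5.95% of those of lower genes, and in 4.44% and 8.03% of those of genes at least 2-fold higher and lower.
Igfbp1 (chr11:7197537-7197836, plus strand): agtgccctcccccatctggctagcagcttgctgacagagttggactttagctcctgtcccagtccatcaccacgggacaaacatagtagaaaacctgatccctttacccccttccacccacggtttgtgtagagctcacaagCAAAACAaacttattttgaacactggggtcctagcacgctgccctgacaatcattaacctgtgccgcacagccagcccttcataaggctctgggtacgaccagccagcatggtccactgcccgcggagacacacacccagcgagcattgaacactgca

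The core was also found in the promoters of G6pc, Irs2 and Ccng2 among the 21 FOXO list members with a promoter in the table. G6pc and Irs2 rose, Ccng2 fell and Igfbp1 did not pass, so carriers of the core lay in each class. Irs2, the insulin receptor substrate that FOXO induces in fasting, stood at 3.73, 2.63 and 3.12 TPM in the Mock samples and 13.7, 14.6 and 16.8 TPM in the FDI samples (4.75-fold, log2 change 1.95, SE 0.14, adjusted p = 2e-05). Foxo1 itself stood at 4.79, 5.47 and 5.59 TPM in the Mock samples and 17.3, 20.0 and 20.9 TPM in the FDI samples (3.67-fold, log2 change 1.70, SE 0.11, adjusted p = 1.4e-05), and Foxo3 rose 2.02-fold. For Irs2 and Foxo1 the groups did not overlap. Insr, the insulin receptor, did not pass (21.1 ± 0.889 TPM in Mock and 23.4 ± 2.04 TPM in FDI, log2 change 0.14, 95% interval from -0.06 to 0.34). Many members that rose, among them Pck1, Ppargc1a and Klf15, also belong to the cAMP or glucocorticoid lists.

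The 4 FOXO targets below Mock were Cited2, Txnip, Sesn3 and Ccng2. Cited2, a coactivator-binding protein, stood at 237, 218 and 241 TPM in the Mock samples and 82.7, 74.4 and 79.6 TPM in the FDI samples (2.94-fold lower, log2 change -1.54, SE 0.06, adjusted p = 9.3e-07). Txnip, a thioredoxin inhibitor that limits glucose uptake, stood at 2.41, 2.38 and 2.59 TPM in the Mock samples and 0.965, 1.15 and 1.05 TPM in the FDI samples (log2 change -0.75, SE 0.14, adjusted p = 0.0033). Sesn3, a stress protein that restrains mTORC1, stood at 10.7, 8.16 and 9.52 TPM in the Mock samples and 4.59, 5.55 and 5.96 TPM in the FDI samples (log2 change -0.71, SE 0.14, adjusted p = 0.0042). Ccng2, an atypical cyclin linked to growth arrest, stood at 13.4, 14.1 and 13.5 TPM in the Mock samples and 7.72, 8.59 and 8.81 TPM in the FDI samples (log2 change -0.65, SE 0.10, adjusted p = 0.0011). In none of the 4 did the groups overlap, which also held for 52.0% of all tested genes.

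Insulin-induced genes of fat handling were not uniformly higher. Angptl8, an insulin-induced regulator of lipoprotein lipase, stood at 26.3, 17.4 and 20.4 TPM in the Mock samples and 71.6, 61.7 and 52.3 TPM in the FDI samples, with no overlap (2.89-fold, log2 change 1.50, SE 0.16, adjusted p = 0.00019). Srebf1, which encodes the lipogenic factor SREBP-1c, stood at 34.0, 34.7 and 22.7 TPM in the Mock samples and 17.3, 23.4 and 20.1 TPM in the FDI samples. The groups overlapped, as Mock replicate 3 lay among the FDI values. It was called lower (log2 change -0.55, adjusted p = 0.033), but the call was lost in 9 of 15 alternatives, including median-of-ratios scaling and the omission of Mock replicate 1 or 2 or FDI replicate 1 or 3. Fasn, fatty acid synthase, stood at 20.0, 21.9 and 29.3 TPM in the Mock samples and 32.1, 29.2 and 28.5 TPM in the FDI samples and did not pass (log2 change 0.34, 95% interval from 0.03 to 0.65, adjusted p = 0.078). Fasn was called higher after median-of-ratios scaling and on omission of Mock replicate 3.

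In the lipogenesis list, 6 of 24 tested members rose and 9 fell (median log2 change -0.11, and 0.00 after median-of-ratios scaling with 7 higher and 7 lower). The rising members included Gpam (59.4 to 113 TPM) and Dgat2 (53.6 to 97.8 TPM), which build glycerolipids, and Elovl6 (1.71-fold), which lengthens fatty acids. The falling members included Scd1 (4165 to 2646 TPM), which desaturates them, and Mlxipl (58.9 to 39.0 TPM), the carbohydrate-responsive factor ChREBP. Pklr, the liver pyruvate kinase and a ChREBP target, fell from 222 to 181 TPM. The 2 members under the filter were Scd2 and Pnpla3.

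Among cholesterol genes, 7 of 25 were higher and 8 lower on TPM, and 11 were higher and 6 lower after median-of-ratios scaling. The 32.0% lower on TPM lay near the 26.1% of all tested genes. Pmvk, phosphomevalonate kinase, stood at 22.6, 25.6 and 21.2 TPM in the Mock samples and 237, 238 and 199 TPM in the FDI samples (9.71-fold, log2 change 3.22, SE 0.10, adjusted p = 1.6e-07). No other enzyme of the list changed by as much: Lss rose 3.32-fold and Sqle 2.15-fold. Sc5d, a late enzyme, fell from 160.0 to 97.7 TPM, and Srebf2, the master factor of the pathway, from 55.3 to 39.0 TPM.

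Glycolytic genes were mostly higher as well. Of 25 tested glycolysis and fructose genes, 18 rose and 2 fell (median log2 change 0.84), where 13.2% of all tested genes were higher. Pfkfb3, whose product makes the activator of phosphofructokinase, stood at 7.74, 3.99 and 6.18 TPM in the Mock samples and 63.7, 61.8 and 80.4 TPM in the FDI samples (11.5-fold, log2 change 3.35, SE 0.20, adjusted p = 7.2e-06). Slc2a1, the glucose transporter GLUT1, stood at 49.1, 43.7 and 43.2 TPM in the Mock samples and 233, 205 and 233 TPM in the FDI samples (4.93-fold, log2 change 2.28, SE 0.08, adjusted p = 3e-07). Neither gene had overlapping groups. Hk2, a hexokinase little used by resting liver, rose from 3.58 to 11.6 TPM, Pkm from 70.8 to 241 TPM and Ldha, lactate dehydrogenase, from 497 to 904 TPM. The members that fell were Pklr and Pfkfb1, the liver form of the bifunctional enzyme (log2 change -0.58), and leaving out Mock replicate 2 or 3 or FDI replicate 1 or 3 reduced them from 2 to 1.

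Among glycogen genes, 7 of 16 tested members rose and 1 fell. Gys1 rose 4.77-fold (4.54 ± 0.986 TPM in Mock and 21.7 ± 0.899 TPM in FDI). The glycogen-targeting subunits of protein phosphatase Ppp1r3b and Ppp1r3c rose 5.41-fold (3.63 ± 0.578 TPM in Mock and 19.6 ± 2.23 TPM in FDI) and 7.45-fold (1.19 ± 0.0370 TPM in Mock and 8.88 ± 0.684 TPM in FDI). Ugp2, which makes UDP-glucose, rose 2.00-fold. The member that fell was Pgm2 (log2 change -0.34), and it did not pass without Mock replicate 3 or FDI replicate 1. Pygl, the liver glycogen phosphorylase, did not pass (log2 change 0.01).

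Within the insulin signalling list 7 of 26 tested members rose and 8 fell, and after median-of-ratios scaling 9 rose and 6 fell. The 30.8% lower on TPM lay near the 26.1% of all tested genes. Besides Irs2, Foxo1 and Foxo3, Trib3, an inhibitor of AKT, rose from 52.0 to 112 TPM. Pik3r1 and Pik3cb, which encode subunits of phosphatidylinositol 3-kinase, fell: Pik3r1 from 42.0 to 24.8 TPM (log2 change -0.74) and Pik3cb from 17.8 to 10.2 TPM (log2 change -0.75).

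**Figure D3:**
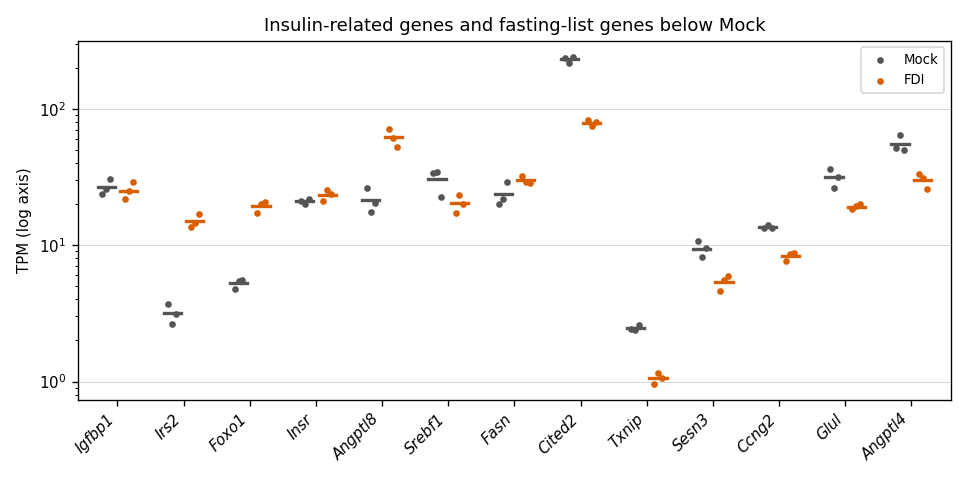
TPM of 13 insulin-related genes and of fasting-list genes below Mock in each of the 6 samples on a log axis, with Mock in grey and FDI in orange; points are samples and bars are group means. Igfbp1, Insr, Srebf1 and Fasn have overlapping groups, Irs2, Foxo1 and Angptl8 lie above Mock, and Cited2 to Angptl4 lie below it.

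Further groups lay above Mock. Hypoxia-inducible factor targets rose in 19 of 22 tested members and fell in 1, with a median log2 change of 1.08. Over all tested genes, 13.2% were higher. Adm, the vasoactive peptide adrenomedullin, stood at 12.8, 8.82 and 11.1 TPM in the Mock samples and 104, 90.9 and 124 TPM in the FDI samples (9.76-fold, log2 change 3.18, SE 0.15, adjusted p = 1.5e-06). Vegfa, the vascular growth factor, stood at 79.7, 91.8 and 83.0 TPM in the Mock samples and 377, 361 and 386 TPM in the FDI samples (4.42-fold, log2 change 2.13, SE 0.07, adjusted p = 1.9e-07). Egln3, the oxygen-sensing hydroxylase, rose 3.57-fold and Bnip3, a mitophagy receptor, 2.50-fold. Mxi1 was the member that fell (log2 change -0.41). Several members, among them Slc2a1, Pfkfb3, Hk2, Aldoa and Ldha, are shared with the glycolysis list, so the counts of the pair are not independent. The 4 members under the filter were Pfkfb4, Car9, Car12 and Slc2a3.

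The integrated stress response, which couples translation to amino acid supply through ATF4, had 15 of 24 tested members higher and 2 lower (median log2 change 0.67). Over all tested genes, 13.2% were higher. Chac1, which degrades glutathione, stood at 10.4, 12.6 and 9.67 TPM in the Mock samples and 72.5, 67.4 and 81.1 TPM in the FDI samples (6.77-fold, log2 change 2.65, SE 0.11, adjusted p = 9.6e-07). Ddit3, the factor CHOP, rose 2.37-fold (34.6 ± 10.4 TPM in Mock and 82.2 ± 5.15 TPM in FDI) and Atf4 1.75-fold (187 ± 18.5 TPM in Mock and 327 ± 13.6 TPM in FDI). Atf3 rose 4.05-fold and Cebpb 3.07-fold. The cystine transporter Slc7a11, a known ATF4 target, went the other way (5.72 ± 1.41 TPM in Mock and 3.03 ± 0.408 TPM in FDI, log2 change -0.72). Slc6a9, a glycine transporter, fell from 53.3 to 35.8 TPM. The amino acid transporters gave 8 higher and 5 lower of 22 tested (36.4% and 22.7%), the lower share being near the 26.1% of all tested genes. Slc7a2, a carrier of arginine, was 6.14-fold higher.

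Among fatty acid oxidation genes, Ppara and Cpt1a had the widest steps. Ppara, the nuclear receptor of the fasting lipid response, stood at 1.93, 1.96 and 2.51 TPM in the Mock samples and 27.0, 29.0 and 34.5 TPM in the FDI samples (14.1-fold, log2 change 3.31, SE 0.13, adjusted p = 7e-07). Cpt1a, which admits long-chain fatty acids to mitochondria, stood at 20.0, 19.1 and 20.3 TPM in the Mock samples and 135, 153 and 147 TPM in the FDI samples (7.33-fold, log2 change 2.81, SE 0.07, adjusted p = 8.6e-08). In both genes every FDI sample exceeded every Mock sample. Across the list 7 of 27 tested members rose and 4 fell (median log2 change 0.04), with 10 higher and 1 lower after median-of-ratios scaling and 2 lower without Mock replicate 1 or 3 or FDI replicate 1 or 2. Plin2, a lipid droplet coat protein, stood at 533, 543 and 515 TPM in the Mock samples and 256, 263 and 262 TPM in the FDI samples (2.04-fold lower, log2 change -1.02, SE 0.04, adjusted p = 1.2e-06), while its relative Plin5 rose from 1.73 to 8.00 TPM.

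Clock genes moved in both directions. Of 20 tested members, 11 rose and 5 fell, the lower share (25.0%) being close to the 26.1% of all tested genes. The negative-limb genes Per1, Per2 and Cry2 rose 8.26-fold, 3.90-fold and 2.72-fold, and Arntl, encoding BMAL1, rose 2.20-fold. Nr1d1, the repressor REV-ERBalpha, stood at 17.1, 20.7 and 17.2 TPM in the Mock samples and 4.02, 4.42 and 4.64 TPM in the FDI samples (4.20-fold lower, log2 change -1.85, SE 0.12, adjusted p = 9.7e-06). Nr1d2, its paralog, stood at 30.0, 26.7 and 31.2 TPM in the Mock samples and 7.35, 6.85 and 8.54 TPM in the FDI samples (3.87-fold lower, log2 change -1.82, SE 0.11, adjusted p = 7.4e-06). For both repressors the FDI and Mock values did not overlap.

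Hepatocyte transcription factors gave 9 higher and 9 lower of 25 tested. Each share was 36.0%, against 13.2% higher and 26.1% lower among all tested genes. Hnf4a, the central factor of hepatocyte identity, stood at 51.0, 51.8 and 53.5 TPM in the Mock samples and 174, 179 and 180.4 TPM in the FDI samples (3.41-fold, log2 change 1.75, SE 0.05, adjusted p = 1.8e-07). Gata6 rose 3.07-fold and Nr1h4, the bile acid receptor FXR, 1.92-fold. Cebpa fell from 38.9 to 25.7 TPM and Nr5a2 from 12.7 to 6.04 TPM. Foxa1 fell from 12.8 to 7.32 TPM.

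Among secreted factors, 10 of 25 tested members rose and 3 fell. Gdf15, a stress hormone that acts on appetite, rose 3.39-fold (16.9 ± 0.575 TPM in Mock and 57.2 ± 4.92 TPM in FDI). Fgf21, the fasting hormone of the liver, rose 4.97-fold at a low level (0.896 ± 0.261 TPM in Mock and 4.45 ± 1.08 TPM in FDI). Hamp, encoding the iron hormone hepcidin, rose 2.44-fold (6.23 ± 0.920 TPM in Mock and 15.2 ± 0.512 TPM in FDI), while Slc40a1, the iron exporter that hepcidin acts on, fell 3.42-fold (41.9 ± 3.03 TPM in Mock and 12.3 ± 1.39 TPM in FDI). Among metal genes 7 of 23 tested rose and 6 fell, and the lower share of 26.1% was that of all tested genes. Slc39a14, a carrier of zinc, iron and manganese, rose 4.39-fold (44.7 ± 3.28 TPM in Mock and 196 ± 29.2 TPM in FDI). Slc39a10, a zinc carrier, fell from 6.09 to 1.59 TPM. Inhba, a subunit of activin A, fell from 49.0 to 29.6 TPM.

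The 12 highest log2 changes were sought among called genes with a mean of at least 5 TPM in 1 group and no overlap. Predicted genes and pseudogenes were left out. The 12 genes were Pck1, Tat, Nr4a3, AA986860, Adh7, Slc25a15, Rasgef1b, Sds, Aass, Arl4d, Plk3 and Cdo1. Among them, Pck1, Nr4a3, Adh7 and Sds passed the filter through FDI alone. Of these 12, 6 are outside the 5 fasting lists. Plk3, a stress-responsive polo-like kinase, stood at 7.56, 5.50 and 5.24 TPM in the Mock samples and 87.8, 81.6 and 86.1 TPM in the FDI samples (14.0-fold, log2 change 3.62, SE 0.12, adjusted p = 3e-07). Arl4d, a small GTPase whose promoter is printed above, stood at 3.32, 3.02 and 3.27 TPM in the Mock samples and 51.5, 47.3 and 57.8 TPM in the FDI samples (16.3-fold, log2 change 3.66, SE 0.10, adjusted p = 1.3e-07). Cdo1, cysteine dioxygenase, which starts the oxidation of cysteine, stood at 27.1, 30.1 and 31.1 TPM in the Mock samples and 357, 370.0 and 386 TPM in the FDI samples (12.6-fold, log2 change 3.61, SE 0.07, adjusted p = 1.1e-08). In all of these the groups did not overlap, which the choice of the 12 required. Adh7, an alcohol and retinol dehydrogenase, rose from 0.135 to 18.4 TPM, Rasgef1b, an exchange factor of small GTPases, from 1.39 to 32.2 TPM, and AA986860 from 0.863 to 33.9 TPM.

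The number of genes below 1 TPM in every Mock sample and at or above 5 TPM in every FDI sample was 13. Besides Pck1, Nr4a3, Adh7, Sds, Ppargc1a and Rgs2, they included Cd24a, a surface glycoprotein (0.203 to 8.03 TPM), Tox, a nuclear HMG-box protein (0.134 to 7.73 TPM), Fezf1, a zinc-finger factor (0.235 to 7.52 TPM), and Lrrc32 (0.455 to 6.12 TPM). Gtpbp4-ps1, annotated as a pseudogene, rose from 0.210 to 14.6 TPM, and its reads may belong to its parent gene. The converse pattern was met by 2 annotated pseudogenes, Gm2399 and Gm28669, both listed at 0 in every FDI sample; their values are uncertain, since near-identical copies can share reads.

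Below Mock, chemokine and cytokine genes stood out by count: 14 of 19 tested members fell and none rose, against 26.1% lower among all tested genes, and their median log2 change was -0.82. Without Mock replicate 1 or 3, 1 member rose. After median-of-ratios scaling 13 fell and 1 rose, and after quantile normalization 12 fell and 2 rose. The other 10 of the 29 members were under the filter. Cxcl10, an interferon-induced chemokine that attracts T cells, stood at 19.6, 19.6 and 20.1 TPM in the Mock samples and 0.419, 0.593 and 1.18 TPM in the FDI samples. The 3 Mock samples agreed closely, and all 3 FDI samples were near 1 TPM or below it (27.0-fold lower, log2 change -3.61, SE 0.17, adjusted p = 1.6e-06). Csf1, the macrophage growth factor, stood at 80.7, 100.5 and 82.2 TPM in the Mock samples and 19.0, 18.7 and 19.9 TPM in the FDI samples (4.57-fold lower, log2 change -2.13, SE 0.09, adjusted p = 1.2e-06). Il34, the second ligand of the same receptor, stood at 11.3, 16.6 and 7.01 TPM in the Mock samples and 1.20, 0.856 and 1.39 TPM in the FDI samples (10.1-fold lower, log2 change -2.49, SE 0.26, adjusted p = 0.00019). Ccl2, which recruits monocytes, stood at 479.9, 545 and 476 TPM in the Mock samples and 185, 157 and 177 TPM in the FDI samples (2.89-fold lower, log2 change -1.52, SE 0.08, adjusted p = 2.9e-06). None of these groups overlapped, which held for 52.0% of all tested genes and was a condition of choice for Cxcl10, Csf1 and Il34.

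Smaller steps were seen in other members. Cxcl1, a neutrophil chemokine, fell 2.68-fold, Ccl7 2.70-fold, Ccl20 2.93-fold and Cxcl16 1.78-fold. Il1rn, the natural antagonist of interleukin-1, fell 3.83-fold (83.4 ± 8.26 TPM in Mock and 21.8 ± 0.699 TPM in FDI). Tgfb1 fell from 6.08 to 2.48 TPM. Ccl9 and Cxcl9 stayed without a call (log2 changes -0.08 and 0.04), and their samples overlapped between the groups. The remaining members without a call were Ccl5, Cxcl2 and Il33. Summed cholangiocyte markers were also lower in FDI, from between 1110 and 1150 TPM in Mock to between 774 and 819 TPM, and their part in the chemokine result was not tested.

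Interferon genes were mixed. Of 27 tested members 8 fell and 3 rose (1 rose without Mock replicate 2 or without FDI replicate 2), a share of lower members close to that of all genes. Irf1, an interferon-induced factor, stood at 25.1, 36.0 and 34.3 TPM in the Mock samples and 8.57, 7.71 and 8.03 TPM in the FDI samples (3.92-fold lower, log2 change -1.83, SE 0.14, adjusted p = 2.8e-05). Usp18, a brake on interferon signalling, went up (12.3 ± 0.625 TPM in Mock and 25.0 ± 3.73 TPM in FDI, log2 change 0.95). Ifi47, a GTPase of the interferon-gamma response outside the list, fell from 16.9 to 3.18 TPM, and Tlr2, a sensor of bacterial lipoproteins chosen after its values were seen, from 9.24 to 1.95 TPM. Acute phase proteins showed no such drop, with 9 of 28 higher and 4 lower (32.1% and 14.3%, against 13.2% and 26.1% of all tested genes). Lcn2, lipocalin-2, rose from 715 to 1534 TPM, and Il6ra, the interleukin-6 receptor, 5.57-fold.

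The 12 lowest log2 changes were chosen under the same conditions, among them no overlap. The 12 genes were Cxcl10, Sox4, Cachd1, Sh2d4a, Plpp3, Il34, Eepd1, Ubald2, Osbpl3, Csf1, Emp1 and Ifi47. Sox4, a developmental transcription factor, stood at 51.0, 47.6 and 51.0 TPM in the Mock samples and 4.76, 5.11 and 4.84 TPM in the FDI samples (10.2-fold lower, log2 change -3.11, SE 0.08, adjusted p = 1e-07). Cachd1, a relative of calcium channel subunits, stood at 100.1, 141 and 129.6 TPM in the Mock samples and 13.7, 16.8 and 14.9 TPM in the FDI samples (8.16-fold lower, log2 change -2.94, SE 0.13, adjusted p = 1.3e-06). Plpp3, a lipid phosphate phosphatase, stood at 23.8, 23.1 and 25.8 TPM in the Mock samples and 2.65, 2.99 and 3.38 TPM in the FDI samples (8.06-fold lower, log2 change -2.66, SE 0.11, adjusted p = 9.3e-07). The 3 FDI values were below the 3 Mock values in each, which the choice of the 12 required. Emp1, an epithelial membrane protein, fell from 8.32 to 1.09 TPM, and the forkhead core GTAAACA begins 223 bases before its start site. That core, searched on both strands (reverse TGTTTAC), was in 3.27% of all tested promoters, 3.20% of those of higher genes and 3.95% of those of lower genes, and in 2.96% and 6.02% of those of genes at least 2-fold higher and lower.

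**Figure D4:**
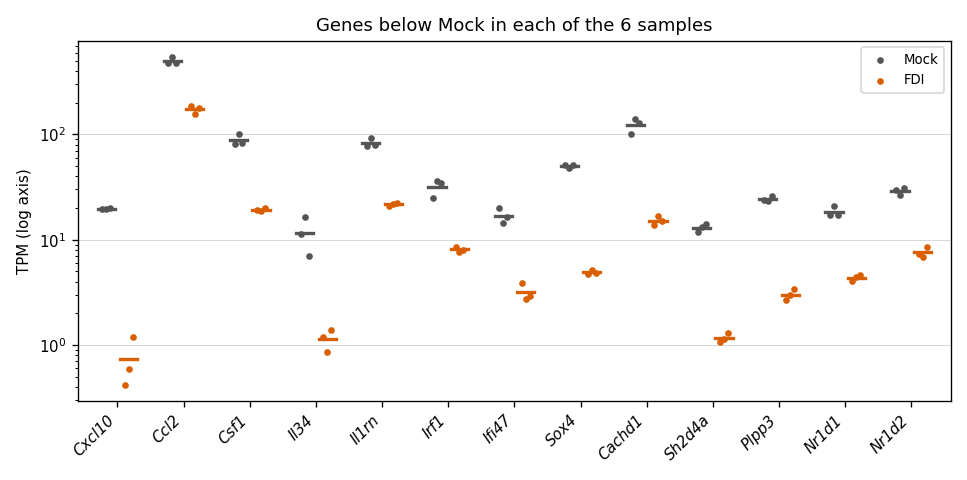
TPM of 13 genes that were lower in FDI, in each of the 6 samples on a log axis, with Mock in grey and FDI in orange; points are samples and bars are group means. The groups do not overlap for any of the 13, and Cxcl10 and Il34 have the most scattered samples. Groups did not overlap for 52.0% of all tested genes. No overlap was a condition of choice for Cxcl10, Csf1, Il34, Ifi47, Sox4, Cachd1, Sh2d4a and Plpp3.

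Of all tested genes, 26.1% were lower and 13.2% higher. In the list of the G1-S transition and DNA replication, 13 of 22 tested members fell and 2 rose (median log2 change -0.43). After median-of-ratios scaling 10 fell (median -0.33), and after quantile normalization 11 fell. Cdk6, a G1 kinase, stood at 24.9, 29.9 and 34.2 TPM in the Mock samples and 10.2, 10.6 and 12.7 TPM in the FDI samples (2.65-fold lower, log2 change -1.33, SE 0.13, adjusted p = 0.00013). Mcm7 and Mcm6, subunits of the replicative helicase, fell from 28.7 to 13.6 TPM and from 37.9 to 18.8 TPM. Rrm2, the inducible subunit of ribonucleotide reductase, was the exception with a large step, at 0.698, 2.02 and 1.71 TPM in the Mock samples and 9.62, 11.5 and 14.0 TPM in the FDI samples (7.94-fold, log2 change 2.39, SE 0.23, adjusted p = 0.00011). Ccnd3 was the other member that rose (log2 change 0.35), and its call was lost without FDI replicate 1, 2 or 3, which left Rrm2 alone. Markers of dividing cells such as Mki67 and Top2a were among the 6 members under the filter.

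Growth-arrest and p53 genes gave 9 higher and 7 lower of 23, and the 30.4% lower lay near the 26.1% of all tested genes. Cdkn1a, the inhibitor p21, rose 2.74-fold (118 ± 5.42 TPM in Mock and 322 ± 22.6 TPM in FDI) and Gadd45g 2.27-fold. Bbc3, the death gene PUMA, stood at 35.9, 31.1 and 35.9 TPM in the Mock samples and 10.0, 6.78 and 7.72 TPM in the FDI samples (4.20-fold lower, log2 change -1.96, SE 0.14, adjusted p = 1.9e-05). Gadd45b fell 2.96-fold (39.5 ± 4.42 TPM in Mock and 13.4 ± 1.51 TPM in FDI), the reverse of its relative Gadd45g. Immediate-early and ERK feedback genes gave 10 higher and 5 lower of 24 (41.7% and 20.8%, against 13.2% and 26.1% of all tested genes). The count of higher members dropped to 5 without Mock replicate 3, to 5 without FDI replicate 1 and to 6 without FDI replicate 3. Dusp1, a phosphatase that shuts off MAP kinases, rose 3.57-fold (89.8 ± 6.86 TPM in Mock and 320.5 ± 6.46 TPM in FDI). Junb fell 2.42-fold (108 ± 12.8 TPM in Mock and 44.7 ± 4.87 TPM in FDI), and Etv4 and Etv5, targets of ERK, fell from 4.98 to 1.14 TPM and from 4.79 to 2.07 TPM.

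Antioxidant NRF2 targets gave 10 lower and 3 higher of 28 on TPM and 9 lower and 6 higher after median-of-ratios scaling. On TPM 35.7% were lower and 10.7% higher, against 26.1% and 13.2% of all tested genes. The 3 higher genes had large steps: Gclc, the catalytic subunit of glutathione synthesis, stood at 133, 126 and 145 TPM in the Mock samples and 711, 817 and 754 TPM in the FDI samples (5.66-fold, log2 change 2.49, SE 0.07, adjusted p = 1.4e-07). Hmox1, heme oxygenase, rose 3.10-fold and Srxn1, sulfiredoxin, 2.30-fold. Gclm, the partner subunit of Gclc, fell from 216 to 156 TPM, and Osgin1 from 1253 to 637 TPM. YAP and SRF targets gave 7 higher and 9 lower of 27, with 33.3% lower against 26.1% of all tested genes. Ccn2 rose 2.10-fold (306 ± 23.3 TPM in Mock and 644 ± 26.7 TPM in FDI). Ccn1 fell 1.62-fold (349.6 ± 22.1 TPM in Mock and 216 ± 7.60 TPM in FDI).

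Other lists lay near the shares of all genes or changed in few members. Ribosome biogenesis factors gave 2 higher and 5 lower of 28, and 7 higher and 2 lower after median-of-ratios scaling. Dkc1, the pseudouridine synthase, was the member with the widest step, 2.33-fold lower (130.0 ± 9.40 TPM in Mock and 55.7 ± 6.67 TPM in FDI). Aminoacyl-tRNA synthetases gave 4 higher and 3 lower of 20, and 9 higher and 1 lower after median-of-ratios scaling. The unfolded protein response gave 3 higher and 7 lower of 24, against 4 and 3 after that scaling and with 3 lower without Mock replicate 3. Its member Herpud1, a factor of protein degradation at the endoplasmic reticulum, rose 6.52-fold (44.7 ± 2.13 TPM in Mock and 291 ± 19.7 TPM in FDI), while the chaperone Hspa5 fell from 751 to 560.2 TPM. Mitochondrially encoded genes gave 1 higher and 1 lower of 13. These small counts moved with single samples. Without FDI replicate 3 no ribosome biogenesis gene was higher, without Mock replicate 1 or 3 only 1 was, and without FDI replicate 2 the lower ones numbered 3. Synthetases had 1 higher without Mock replicate 3, and 1 lower without Mock replicate 1 or FDI replicate 2. The unfolded protein response had 1 higher without Mock replicate 2 or FDI replicate 1 or 3, and 4 lower without Mock replicate 1 or FDI replicate 1 or 3. Mitochondrially encoded genes had 4 higher without FDI replicate 1 and 2 lower without FDI replicate 2.

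Secretory and detoxifying genes of hepatocytes changed mostly by small steps. Apolipoprotein and VLDL genes gave 11 higher and 1 lower of 24, 16 higher after median-of-ratios scaling and 9 after quantile normalization. Apobec1, which edits Apob RNA, was the lower member (136 ± 9.72 TPM in Mock and 61.2 ± 4.74 TPM in FDI). P450 genes gave 5 higher and 1 lower of 24 (2 lower without Mock replicate 1), and 11 higher after median-of-ratios scaling; Cyp2c70, which makes muricholic acids, rose 5.00-fold (25.4 ± 2.41 TPM in Mock and 127 ± 10.1 TPM in FDI). Bile acid genes gave 5 higher and 4 lower of 20 (25.0% and 20.0%, against 13.2% and 26.1% of all tested genes). Among them was Abcc4, an export pump, lower at 5.98 ± 0.503 TPM in Mock and 3.08 ± 0.414 TPM in FDI. Reads of near-identical P450 and apolipoprotein paralogs may be shared.

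**Figure D5:**
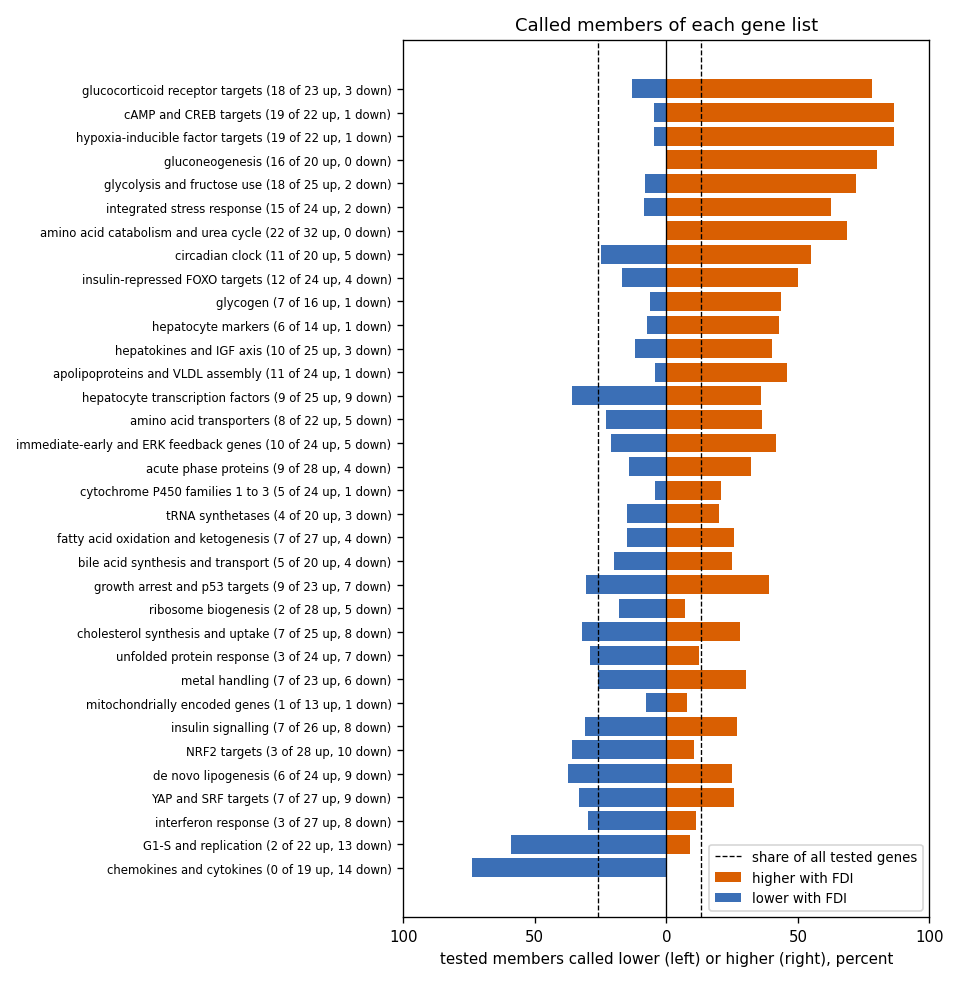
Share of the tested members of 34 gene lists called higher in FDI (orange, to the right) or lower (blue, to the left), in percent, ordered by the list's median log2 change; the dashed lines mark the 13.2% and 26.1% of all tested genes. Glucocorticoid, cAMP, hypoxia and gluconeogenesis lists are at the top, and the G1-S and chemokine lists at the bottom.

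Cell type markers were summed to describe the makeup of the cultures. The 14 hepatocyte markers summed to between 40900 and 43300 TPM in Mock and between 42600 and 42900 in FDI, most of it Alb and Trf. Of the 14, 6 were higher (42.9%, against 13.2% of all tested genes) and 1 was lower. The members at least 2-fold higher were Cps1, Ass1 and Hnf4a, which are also reported above under other lists. The lower one was Alb itself (log2 change -0.17), whose call was lost in 6 of 15 alternatives, among them the omission of Mock replicate 1 or 3. Quantile normalization left Alb no difference, but that scaling gives genes of the same rank the same value in every sample. It cannot show a change in a gene that keeps its rank. The 12 Kupffer cell markers summed to between 336 and 346 TPM in Mock and between 309 and 384 in FDI, nearly all of it Cd68, with none of 5 tested called. Clec4f, Vsig4, Adgre1, Timd4, Cd5l, C1qc and Csf1r were under 1 TPM on average in both groups, while Marco (0.941 to 1.44 TPM), C1qa (1.01 to 1.49 TPM), C1qb (1.38 to 0.862 TPM) and Lyz2 (3.46 to 3.25 TPM), given as Mock to FDI means, were somewhat higher and not called. The 12 endothelial markers summed to between 27.8 and 29.0 TPM in Mock and between 26.6 and 32.4 in FDI, with Lyve1 higher and Fcgr2b lower among 7 tested.

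The 10 cholangiocyte markers summed to between 1110 and 1150 TPM in Mock and between 774 and 819 in FDI. Of 4 tested, 3 fell, among them Spp1 (889 to 632 TPM) and Cldn4 (176 to 105 TPM), while the defining keratins Krt19 and Krt7 and Epcam were under 1 TPM on average in both groups. The 13 stellate cell and fibroblast markers summed to between 9.79 and 11.6 TPM in Mock and between 7.23 and 8.15 in FDI, with Sparc lower among 2 tested; its call was lost without Mock replicate 1 or 3 or FDI replicate 2 or 3. The 12 lymphocyte markers summed to less than 1 TPM in every sample, with none tested.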

How the data were processed

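The authors deposited gene-level TPM for the series. The submitters' processing notes name kallisto 0.44.0, the build GRCm38.p6 and, with no role, DESeq2. Neither strand use nor the annotation release is given in the sources used here, so reads of overlapping or antisense genes cannot be told apart. Groups came from the sample titles, and columns were matched by library name. Genes with at least 1 TPM in at least 3 of the 6 samples were analysed as log2(TPM + 1), a scale that understates changes of low genes. A model with a term for group was fitted to the 3 FDI and 3 Mock samples alone in limma 3.58.1 (R 4.3.3) with a prior variance that follows intensity. Every adjusted p comes from this fit, is two-sided and was adjusted by Benjamini-Hochberg over 11125 genes, and the threshold was 0.05. SD is over the n = 3 samples of a group. SE is that of the FDI minus Mock difference in this fit, which draws on all 6 samples and the prior variance. Coordinates are from GENCODE M21 (GRCm38), in which 35933 symbols (99.4%) were found, and promoters from RefSeq. On simulated data with 200 changed genes among 11125, the fit recovered 55.2% of 1.5-fold, 77.6% of 2-fold and 97.0% of 4-fold changes, and 6.71% of its calls were false. The simulated samples were independent, and far fewer genes were changed than the 39.3% called here. These rates check the code and do not describe the calls above.

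The 39 gene lists (816 genes, some in more than 1 list) and the genes described were chosen with earlier results of these data known. Named genes are a fixed set of fasting and insulin genes, the 12 highest and 12 lowest changes with a mean of at least 5 TPM in 1 group and no overlap (predicted genes and pseudogenes left out), up to 4 members per list by adjusted p with up to 2 called the other way, genes below 1 TPM in 1 group and at or above 5 in the other, the 4 most abundant calls per direction and the cell markers. Other list members were picked after their values were seen. Some genes that this rule names are not reported here.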

Additional observations from a re-analysis of the deposited data

How the results depend on the processing

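The 15 alternatives were 2 other pseudocounts, no filter, a filter at 5 TPM, 2 scalings, no intensity trend, the spread of all 12 samples, a replicate block and the omission of each of the 6 samples. The number of genes at least 2-fold lower rose from 353 to 573 with a pseudocount of 0.1; the other counts over all genes, and those of the fasting-hormone and lipogenesis lists, stayed within 1.5 times of their values. Leaving out 1 sample gave 1151 to 1371 higher and 2244 to 2600 lower genes. Whether the replicate numbers pair the samples is not known, and the main fit used no pairing. Deviations of same-numbered Mock and FDI samples correlated at only 0.0094, 0.0497 and 0.0415. Each Mock sample still correlated best with the FDI sample of its own number, a hint from the data and not the design. With a replicate block, 1390 genes were higher and 2707 lower. Of 262 called genes followed through the alternatives, 244 were called in each alternative that tested them. Of the 78 list counts, 30 moved by more than 1.5 times somewhere, most of them counts of a few genes. The sign was not kept everywhere for 8 genes, of which Alb (log2 change -0.17) had a call and Stab1 (-0.21) and the others had none. After median-of-ratios scaling the log2 change was 0.029 for Igfbp1, 0.104 for Cyp2e1, 0.029 for Lyz2, 0.107 for Cd68 and 0.057 for Cdh5. After quantile normalization it was 0.000 for Alb, -0.053 for Cyp3a11, 0.1 for Lyz2 and 0.106 for Cdh5. Genes of equal rank get equal values under that scaling, so the 0.000 of Alb may reflect its rank alone. On leaving out 1 sample it ran from -0.188 to 0.014 for Igfbp1, from -0.060 to 0.018 for Cyp2e1, from -0.226 to 0.046 for Lyz2, from -0.105 to 0.061 for Cd68, from -0.123 to 0.019 for Cdh5 and from -0.367 to 0.057 for Stab1. The cause was not tested. Depth is unknown, so the error of low values is seen only in the spread of the replicates.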

Other observations

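The most abundant transcripts with a call were examined as well. Clu, the secreted chaperone clusterin, stood at 19160, 20340 and 19420 TPM in the Mock samples and 13220, 12180 and 12720 TPM in the FDI samples (log2 change -0.63). Sprr1a, a protein of cornified epithelia that is abundant in these cultures, stood at 12220, 12830 and 12300 TPM in the Mock samples and 6692, 5953 and 6082 TPM in the FDI samples (1.99-fold lower, adjusted p = 4.6e-06). B2m, the light chain of MHC class I, fell from 6034 to 5089 TPM. On the higher side Ftl1, the ferritin light chain, went from 3688 to 4975 TPM, and the call of Gapdh (6484 to 7604 TPM) was lost in 9 of 15 alternatives, including the omission of any Mock replicate or of FDI replicate 1 or 3. Olfr1033, annotated as an olfactory receptor, was listed at 3482, 3876 and 4210 TPM in the Mock samples and 8891, 10610 and 10890 TPM in the FDI samples. Its value is uncertain, since overlapping genes cannot be told apart here. Gm29216 is an annotated pseudogene, and its call (10460 to 12570 TPM) was lost in 8 of 15 alternatives, including the omission of Mock replicate 1 or 3 or of any FDI replicate.

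Other genes outside the lists, chosen after their values were seen, had large steps. Agt, angiotensinogen, rose 7.61-fold (69.3 ± 1.87 TPM in Mock and 528 ± 6.79 TPM in FDI). Hilpda, a lipid droplet protein, rose 8.34-fold (9.75 ± 0.330 TPM in Mock and 81.3 ± 6.77 TPM in FDI), while Plin2 fell. Mrap, which brings melanocortin receptors to the membrane, rose 5.72-fold (35.6 ± 3.31 TPM in Mock and 204 ± 14.0 TPM in FDI). Adh1, the main liver alcohol dehydrogenase, rose 7.41-fold (80.8 ± 2.92 TPM in Mock and 599 ± 5.95 TPM in FDI). On the lower side, Smad3, a mediator of TGF-beta signals, fell 3.76-fold (44.7 ± 4.88 TPM in Mock and 11.9 ± 1.19 TPM in FDI), beside the fall of Tgfb1. Hbp1, a repressor of cell cycle genes, fell 4.10-fold (83.7 ± 4.47 TPM in Mock and 20.4 ± 1.75 TPM in FDI). Irf5, a factor of inflammatory cytokine genes, fell 4.08-fold (26.3 ± 1.28 TPM in Mock and 6.46 ± 0.387 TPM in FDI).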
